A study of Mus musculus with 21 samples.

Results

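The genes described here are 31 members of the nuclear receptor superfamily, taken from a fixed list of gene symbols out of the 22367 protein-coding genes of the mm9 annotation. They are the REV-ERB genes Nr1d1 and Nr1d2, the liver X receptor genes Nr1h2 and Nr1h3, the orphan receptor genes Nr2c1, Nr2c2, Nr2e1, Nr2e3, Nr2f1, Nr2f2, Nr2f6 and Nr6a1, the mineralocorticoid receptor gene Nr3c2, the NR4A genes Nr4a1, Nr4a2 and Nr4a3, the NR5A genes Nr5a1 and Nr5a2, the retinoic acid receptor genes Rara, Rarb and Rarg, the retinoid-related orphan receptor genes Rora and Rorb, the thyroid hormone receptor genes Thra and Thrb, the oestrogen receptor genes Esr1 and Esr2, the oestrogen-related receptor genes Esrra, Esrrb and Esrrg, and the progesterone receptor gene Pgr. For each gene the window examined was the gene body plus 10 kb on each side. The vitamin D receptor, its RXR partners and several metabolic receptors were kept apart as a separate list of 17.

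VDR ChIP-seq maps where the vitamin D receptor sits on chromatin, and ATAC-seq maps accessible chromatin. The study set epithelium of 3 intestinal compartments of C57BL/6J mice side by side, namely colon, SI crypt and SI villus, both SI fractions coming from the proximal small intestine. For ChIP-seq the methods give a mucosal scraping of the entire colon, but isolated crypts and villi for SI. The paper names a possibility that differing extraction procedures changed the VDR binding measured between compartments. Preparation and compartment thus differ together in every comparison of colon with SI. There were 4 VDR ChIP-seq samples per compartment, from mice labelled 4 to 6 weeks old and taken 1 h after 10 ng/g of 1,25(OH)2D3, and 3 ATAC-seq samples per compartment, from mice labelled 90 days old. The study's methods give another age for the ChIP-seq mice, and they describe the ATAC-seq mice as untreated where the labels' protocol describes an injection. No vehicle ChIP-seq sample was analysed here, so no value below is an effect of 1,25(OH)2D3. The labels tie no sample to a mouse, and colon and SI were taken from the same group of animals, so p-values measure only the spread between these samples. More than one anti-VDR antibody was used. In bulk tissue, strong binding in few cells and weak binding in many cannot be told apart.

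Nuclear receptors are transcription factors, many of them switched by a small lipophilic ligand, that bind short hexamers related to AGGTCA. VDR binds as a partner of RXR to 2 hexamers in the same orientation with a spacer of 3 bases, called DR3. Other members use other spacings or 1 hexamer alone, such as DR4 for thyroid hormone and liver X receptors, DR2 and DR5 for retinoic acid receptors, and an extended single hexamer for REV-ERB, ROR, NR5A and oestrogen-related receptors. In the intestine these receptors are known for setting daily rhythm, sodium uptake, crypt renewal, lipid handling and mitochondrial activity.

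The sequences under the VDR peaks that the results turn on are shown first, from mm9, so that each peak can be read with its letters. In the first group the capitals mark the pair of hexamers nearest to a DR3 in the 200 bp centred on the summit, the position of highest signal in the peak. That pair has 3 mismatches to a DR3 at Esrrg and 2 at Rorb, Esr1 and Nr3c2.

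Rorb, 0.711 kb upstream, chr19:19186354-19186454, minus strand: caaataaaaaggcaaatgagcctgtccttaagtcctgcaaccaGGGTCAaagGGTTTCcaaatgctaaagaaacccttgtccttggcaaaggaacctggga

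Esr1, intron, chr10:5725422-5725522, plus strand: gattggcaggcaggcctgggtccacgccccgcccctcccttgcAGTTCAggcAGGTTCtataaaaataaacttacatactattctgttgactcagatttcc

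Nr3c2, intron, chr8:79548145-79548245, plus strand: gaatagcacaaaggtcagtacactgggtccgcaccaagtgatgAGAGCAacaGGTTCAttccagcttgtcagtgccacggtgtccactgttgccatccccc

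Esrrg, intron, chr1:189529432-189529532, minus strand: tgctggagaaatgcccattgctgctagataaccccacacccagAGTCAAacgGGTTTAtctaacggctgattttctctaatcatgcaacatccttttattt

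In the second group the capitals mark an exact direct repeat of another spacing, with each hexamer being AGGTCA or GGTTCA or GGGTCA or AGTTCA.

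Esrra, DR5, chr19:6994727-6994827, plus strand: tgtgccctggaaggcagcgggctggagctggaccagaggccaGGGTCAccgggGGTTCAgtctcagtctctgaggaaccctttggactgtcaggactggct

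Rarb 3′ exon, DR2, chr14:17264637-17264736, plus strand: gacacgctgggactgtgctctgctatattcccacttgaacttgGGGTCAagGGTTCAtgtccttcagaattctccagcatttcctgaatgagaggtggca

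Rarb promoter, DR5, chr14:17408021-17408049, minus strand: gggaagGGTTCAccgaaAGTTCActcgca

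Thrb, DR4, chr14:18519714-18519813, plus strand: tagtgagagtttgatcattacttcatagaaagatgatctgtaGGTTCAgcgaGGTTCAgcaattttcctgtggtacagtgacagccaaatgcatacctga

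Nr1d1, DR1, chr11:98635555-98635655, minus strand: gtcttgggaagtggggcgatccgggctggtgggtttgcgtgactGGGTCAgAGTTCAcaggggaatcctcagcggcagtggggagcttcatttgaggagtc

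VDR-binding peaks lay in the windows of most of these genes, and most often in colon. Of the 31 genes, 24 had a peak of the pooled list in colon (77.4%, Wilson 95% interval 60.2 to 88.6), against 51.5% of the 22336 other protein-coding genes. In SI crypt 19 had one (61.3%, 43.8 to 76.3), against 38.9%. In SI villus 16 had one (51.6%, 34.8 to 68.0), against 44.8%, which lies inside the interval. A peak in at least 1 compartment was present at 26 genes (83.9%, against 59.8% of the others). The pooled VDR lists differ in length, and that of colon is the longest. With each cut to its 12702 strongest peaks, 21, 19 and 14 members had a peak in colon, SI crypt and SI villus. Those are 67.7%, 61.3% and 45.2%, against 37.8%, 38.9% and 37.8% of other genes. These shares are descriptions without a test, since neighbouring genes share peaks and genes are not replicates.

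Long genes hold more peaks, so the shares were also read by window length. Among genes with windows under 50 kb, 11 of 14 members (78.6%, 52.4 to 92.4) had a colon peak, against 46.5% of other genes. The colon figures were 7 of 8 (87.5%, 52.9 to 97.8, against 62.6%) for windows of 50 to 150 kb and 6 of 9 (66.7%, 35.4 to 87.9, against 58.4%) for longer ones, where the intervals hold the value of the other genes. For SI crypt every interval held it, with 57.1% (32.6 to 78.6) against 34.2%, 62.5% (30.6 to 86.3) against 47.7% and 66.7% (35.4 to 87.9) against 51.1% from short to long windows. For SI villus every interval held it too, with 57.1% (32.6 to 78.6) against 39.8%, and with lower shares than other genes in the longer classes, 50.0% (21.5 to 78.5) against 55.6% and 44.4% (18.9 to 73.3) against 53.4%. Within 10 kb of the gene start alone, 19, 13 and 11 members had a peak (61.3%, 41.9% and 35.5%, against 39.2%, 28.1% and 35.3%). Counted per length, the members were close to other genes in colon, with 1.91 against 1.87 peaks per 100 kb, and in SI crypt, with 1.02 against 1.03. In SI villus they had fewer, 0.933 against 1.49.

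A peak of the pooled list was called again in 2 or more single samples at 16 genes in colon (51.6%, 34.8 to 68.0, against 20.3% of other genes). There were 6 in SI crypt (19.4%, 9.19 to 36.3, against 9.89%) and 7 in SI villus (22.6%, 11.4 to 39.8, against 18.5%). Both SI intervals hold the value of the other genes. The SI villus count was 3 without sample 1 and 3 without sample 2. In 3 or more samples the counts were 12, 3 and 3 (38.7%, 9.68% and 9.68%, against 12.1%, 5.15% and 8.35%). Support by all 4 samples was found for 1 gene per compartment, Rorb in colon and Esrra in SI crypt and in SI villus (3.23% each, against 4.07%, 2.29% and 3.24% of other genes).

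**Figure D1:**
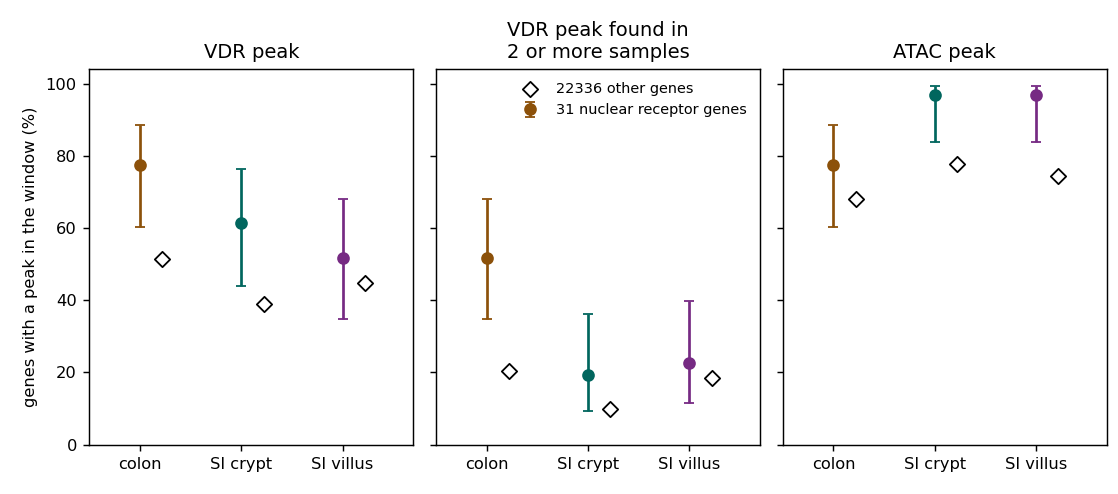
Share of genes with a peak in the window, in percent of genes, for pooled VDR peaks, VDR peaks found again in 2 or more samples, and ATAC peaks. Filled points are the 31 nuclear receptor genes with Wilson 95% intervals and open diamonds the 22336 other genes: for pooled VDR peaks the interval lies above the diamond in colon and SI crypt and holds it in SI villus, where 51.6% of members stand beside 44.8% of other genes.

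The samples differed in depth of calling. The ChIP-seq samples held 3100376 to 14716273 kept fragments and 1136 to 13381 peaks, and SI crypt sample 1 had the fewest fragments and the most peaks. Outside the regions that the pooled lists leave out, the members with a peak numbered 5, 15, 15 and 16 for colon samples 1 to 4, where 7.2%, 18.1%, 22.1% and 31.6% of other genes had one. The numbers were 21, 4, 3 and 8 for the SI crypt samples (39.8%, 7.03%, 4.18% and 9.72% of other genes) and 10, 11, 2 and 8 for the SI villus samples (30.7%, 21.0%, 4.59% and 15.4%). The ATAC-seq samples held 14376006 to 38175468 kept fragments and had peaks at 24 to 29 members. With open meaning an ATAC peak in 2 or more samples, all 4 epithelial marker promoters were open in each compartment and none of the 4 immune ones. Of 4 stromal and muscle markers Col1a1 was open in SI crypt, and of 3 neuronal markers Ret was open in SI crypt and SI villus, in 3 of 3 samples each. The part of other cell types in the results was not tested. Of the 4 small intestinal marker promoters, colon had 0 open, SI crypt 1 and SI villus 4, while of the colon marker promoters reported here that of Car4 was open in colon and those of Car1 and Hoxd13 were not.

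**Figure D2:**
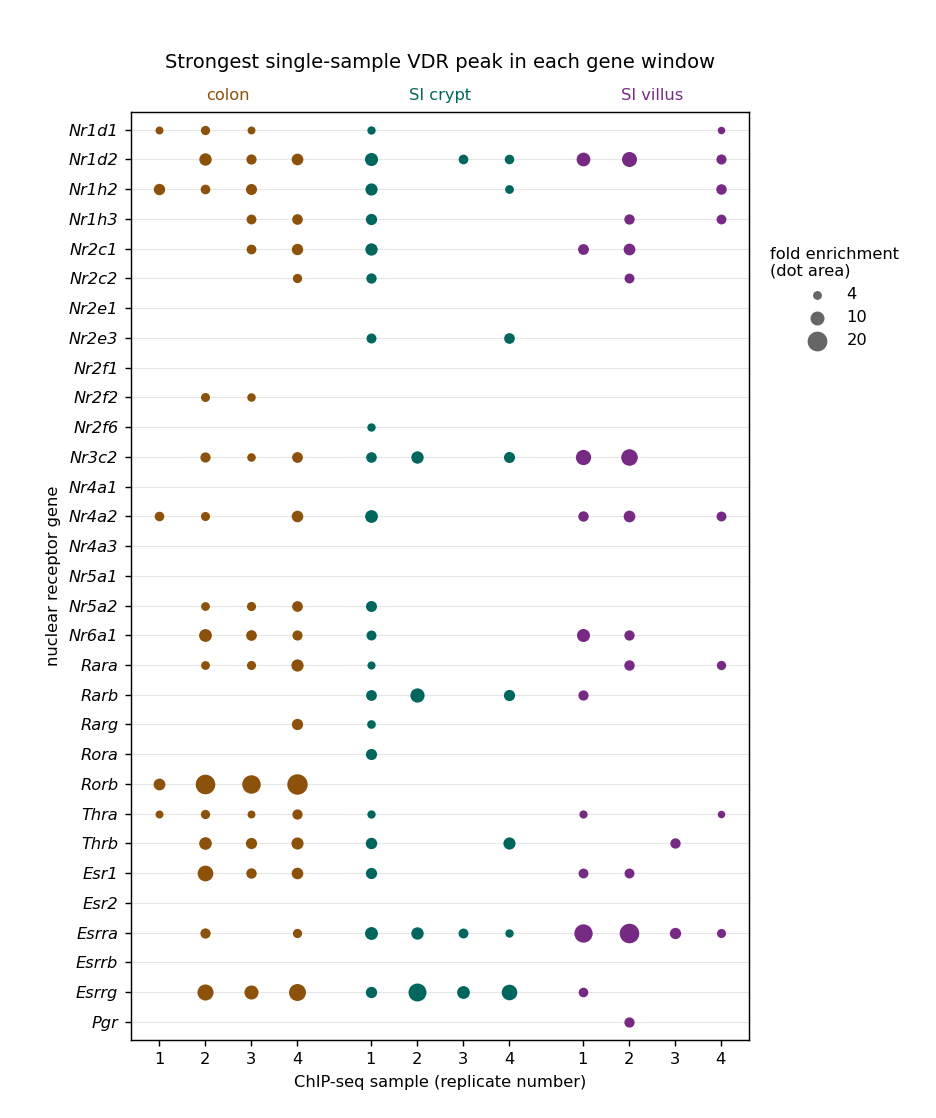
The strongest VDR peak of each single sample in each gene window, outside the regions left out of the pooled lists. Rows are the 31 genes, columns the 12 samples by replicate number, and dot area is the fold enrichment of the peak over its local background. Rorb has dots in all 4 colon samples and in no SI sample, Esrra in all 8 SI samples, and Esrrg its largest dots in colon and SI crypt.

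By compartment, 14 genes (45.2%, against 30.7% of other genes) had a pooled VDR peak in all 3: Nr1d1, Nr1d2, Nr1h2, Nr1h3, Nr2c1, Nr2c2, Nr3c2, Nr4a2, Nr6a1, Rara, Thra, Thrb, Esr1 and Esrra. Another 5 (16.1% against 9.92%) had one in colon alone, namely Nr2f2, Nr4a3, Nr5a1, Rorb and Esr2. Colon and SI crypt without SI villus was the pattern of 4 genes (12.9% against 3.38%), Nr2e3, Nr2f6, Nr5a2 and Esrrg. The single cases were Nr4a1 in SI villus alone (3.23% against 3.6%), Rarb in SI crypt alone (against 1.7%) and Rarg in colon and SI villus (against 7.45%). No pooled peak was called at Nr2e1, Nr2f1, Rora, Esrrb and Pgr (16.1% against 40.2%).

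The strongest colon peak of the set stood at Rorb, which encodes RORβ, an orphan receptor best known from retina and brain. Rorb lies on the minus strand of chromosome 19 at 19005095-19185686 (mm9), and the peak, chr19:19186067-19186727, was centred at −0.711 kb from its start. In the pooled colon list it ranked 107 of 22882, with a fold enrichment of 23.0 and a −log10 q of 217, q being the adjusted significance that the peak caller gives the peak against its local background. Single colon samples gave fold enrichments of 7.06, 19.6, 17.5 and 21.3, and no peak was called there in any of the 8 SI samples. Sample 1 was the lowest of the colon values, and colon and SI did not overlap. The exact permutation test of presence at the Rorb site gave p = 0.0286 for colon against SI crypt and against SI villus, the smallest p that 4 against 4 samples allow, and an adjusted p of 1 in both. The Rorb site was picked for its height in these same colon samples, so this p-value is no separate evidence of a difference. Presence in all 4 samples of one compartment and none of the other was seen at 196 of 16838 and 246 of 16497 sites tested. Those are 0.562% and 0.706% of all 34864 VDR sites. Sites not tested, without a peak in any sample compared, cannot show the pattern and lower these shares. The pattern is thus not particular to Rorb. The Rorb peak is in the authors' deposited sets of sites higher in colon for both comparisons, which rest on the same samples.

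The Rorb peak overlapped no colon ATAC peak, although an ATAC peak within 1 kb of a Rorb transcript start was present in all 3 colon samples (−log10 q 55.2). The Rorb promoter was also open in all 3 SI crypt samples (−log10 q 35.0) and all 3 SI villus samples (44.2), where no VDR peak was called there. The best DR3 match in it, printed above, has 2 mismatches and is centred 7 bp from the summit. Over the whole Rorb window the samples were less distinct. Single-sample peaks were called in 2 SI crypt and 2 SI villus samples, behind the gene, in regions that the pooled lists leave out. With those regions set aside, no SI sample had a peak in the Rorb window.

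The oestrogen-related receptors ERRα and ERRγ, encoded by Esrra and Esrrg, are orphan receptors known for driving genes of mitochondrial energy metabolism. The Esrra peak, chr19:6994450-6995109 at +1.52 kb, had pooled −log10 q values of 19.8, 62.5 and 218 for colon, SI crypt and SI villus, and ranked 191 in the last. Colon samples gave 1 peak, in sample 4, with a fold enrichment of 4.33. SI crypt samples gave fold enrichments of 8.48, 7.84, 5.04 and 3.54, and SI villus samples 17.2, 19.6, 6.53 and 4.19 at Esrra. The peak was thus present in 8 of 8 SI samples, with the villus values overlapping those of the crypt and 1 of 4 colon samples also positive. Presence gave p = 0.143 in the exact permutation test for colon against either SI compartment (adjusted p of 1). The Esrra peak is in the deposited set of sites higher in SI villus than in colon.

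The Esrra site lies within 1 kb of an internal transcript start and holds the DR5 letters shown above, 3 bp from its summit. It overlapped an ATAC peak in SI crypt only, a weak one (−log10 q 6.12). A second Esrra peak at −0.331 kb was called in colon alone (−log10 q 11.4), in samples 2 and 4 with fold enrichments of 5.38 and 3.17, and overlapped a strong colon ATAC peak (−log10 q 105). The Esrra promoter was open in all 3 ATAC samples of every compartment.

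At Esrrg the main peak was intronic, chr1:189529237-189529712, +96.8 kb into a gene of 606 kb. The pooled fold enrichments were 15.7 in colon and 15.2 in SI crypt (−log10 q 85.2 and 110), and no pooled peak was called there in SI villus. Colon samples 2 to 4 gave 13.2, 10.1 and 14.7 and SI crypt samples 2 to 4 gave 16.6, 8.37 and 12.5 as fold enrichments at Esrrg. Sample 1 of both compartments and all 4 SI villus samples had no peak, so colon and SI crypt overlapped. Presence in 3 of 4 samples did not separate either of them from SI villus (exact permutation p = 0.143, adjusted p of 1). This Esrrg site is in none of the deposited sets of differing sites. The Esrrg site overlapped an ATAC peak in SI crypt (−log10 q 5.07) and none in colon. At Esrrb, the third gene of the group, no pooled VDR peak was called.

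**Figure D3:**
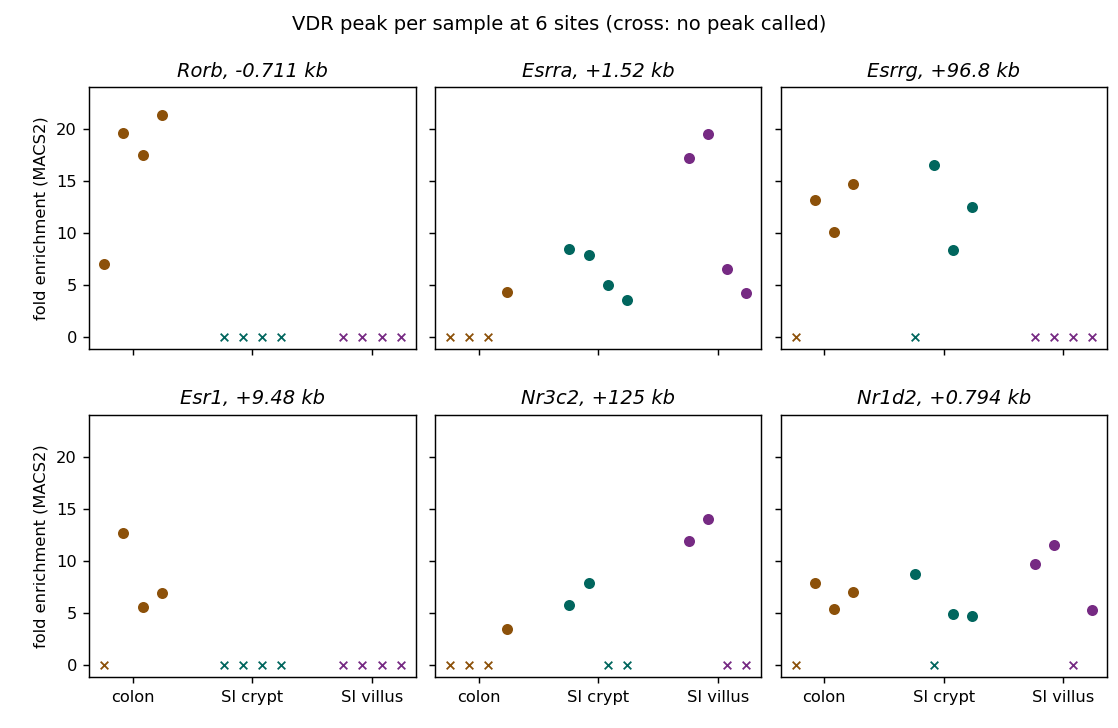
Fold enrichment of the VDR peak called in each single sample at 6 sites named by gene and distance from the gene start in kb. Dots are samples in replicate order, crosses samples without a called peak: Rorb is called in colon samples alone, Esrra reaches 19.6 in SI villus, and Nr1d2 is called in 3 samples of each compartment.

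The oestrogen receptor gene Esr1 had its main peak in an intron at +9.48 kb, chr10:5725166-5725774, in colon alone (−log10 q 42.0, fold enrichment 10.3). Colon samples 2 to 4 gave fold enrichments of 12.6, 5.53 and 6.88, and neither colon sample 1 nor any SI sample had a peak there. The Esr1 site was open in colon (ATAC −log10 q 26.5) and is in the deposited set of sites higher in colon than in SI villus. Its best DR3 match has 2 mismatches and is centred 2 bp from the summit. The second receptor gene, Esr2, held 2 weak colon peaks behind the gene (−log10 q 5.55 and 2.56), neither of them called in any single sample. Pgr, the progesterone receptor gene, held no pooled peak, and SI villus sample 2 gave a single-sample peak in its window (fold enrichment 5.38).

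Nr3c2 encodes the mineralocorticoid receptor, which mediates aldosterone-driven sodium uptake in colon. It had the most peaks of the set, 25 for colon, 6 for SI crypt and 9 for SI villus over 32 sites, within a gene of 346 kb. The 3 sites shared by all compartments were intronic, at +29.6, +125 and +179 kb, and their order of strength differed. At +125 kb, chr8:79547938-79548648, −log10 q was 2.00, 19.7 and 59.7 for colon, SI crypt and SI villus. The single-sample fold enrichments there were 3.41 in colon sample 4, 5.74 and 7.82 in SI crypt samples 1 and 2, and 11.9 and 14.0 in SI villus samples 1 and 2.

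At the +29.6 kb site of Nr3c2, −log10 q was 27.5, 22.8 and 15.8 in colon, SI crypt and SI villus. Colon samples 2 to 4 gave fold enrichments of 5.32, 3.75 and 5.95, SI crypt sample 4 gave 6.26, and no SI villus sample had a peak. At +179 kb the pooled −log10 q was 11.4, 8.11 and 23.9, with single-sample peaks in SI crypt sample 1 (5.21) and SI villus samples 1 and 2 (7.15 and 7.55). None of the 3 sites separated the compartments by presence, the exact permutation p being 0.143 or more. The +29.6 and +179 kb sites of Nr3c2 overlapped ATAC peaks in all 3 compartments, and the +125 kb site overlapped one in SI villus alone. That villus ATAC peak was weak (−log10 q 6.39) and was called in no single villus ATAC sample. Most of the other colon peaks were weak: 20 of the 32 Nr3c2 sites were called in colon alone.

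**Figure D4:**
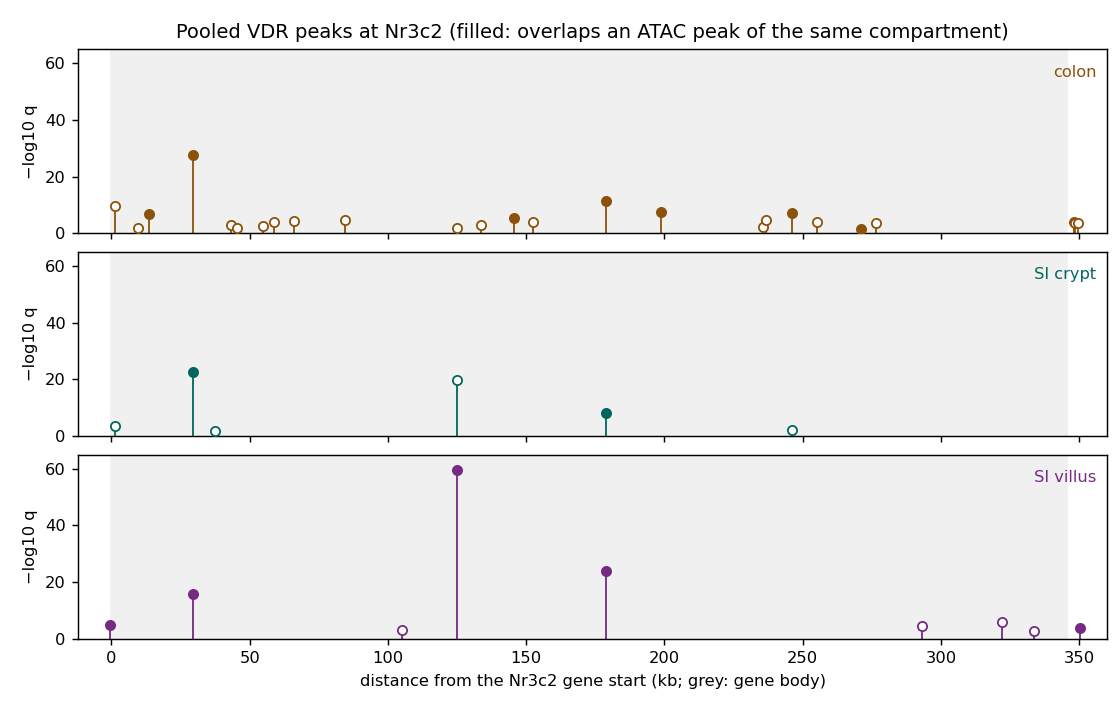
Pooled VDR peaks along Nr3c2 in colon, SI crypt and SI villus. The x axis is the distance from the gene start in kb with the gene body in grey, height is −log10 q, and filled points overlap an ATAC peak of the same compartment: the tallest peak is at +29.6 kb in colon and SI crypt and at +125 kb in SI villus.

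REV-ERBα and REV-ERBβ, encoded by Nr1d1 and Nr1d2, are haem-sensing repressors of the circadian clock. The Nr1d2 promoter site at +0.794 kb, chr14:19070426-19071267, was among the most evenly supported of the set. Its −log10 q was 38.3, 22.7 and 45.6 for colon, SI crypt and SI villus, and it overlapped an ATAC peak in each. Colon samples 2 to 4 gave fold enrichments of 7.86, 5.31 and 6.99, SI crypt samples 1, 3 and 4 gave 8.75, 4.83 and 4.66, and SI villus samples 1, 2 and 4 gave 9.66, 11.5 and 5.23 at Nr1d2. The groups overlapped, with 3 of 4 samples positive in each.

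Nr1d1 and Thra overlap at their 3′ ends on opposite strands of chromosome 11, so 5 of the VDR sites in both windows are the same sites. They were wide, up to 1936 bp, and of low height, with pooled fold enrichments of 1.84 to 2.90. The most supported Nr1d1 site, chr11:98628184-98629237 behind the gene, gave 3.24, 3.64 and 2.76 in colon samples 1 to 3, 3.55 in SI crypt sample 1 and 2.88 in SI villus sample 4. The promoter site of Nr1d1 at +1.09 kb, which holds the DR1 letters shown above, was called in colon and SI villus (−log10 q 20.5 and 12.2), with fold enrichments of 4.40 and 3.20 in colon samples 2 and 3 and 2.83 in SI villus sample 4. The site with the highest value in SI villus (−log10 q 14.7) was called in 1 colon sample and 1 SI villus sample, at 2.24 and 2.39.

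Among other genes of the molecular clock, a list of 9 from Arntl to Dbp, a pooled VDR peak was present at 9, 7 and 9 of them for colon, SI crypt and SI villus, and at 6, 3 and 3 in 2 or more samples. The 3 in SI crypt and in SI villus were Clock, Npas2 and Per2. Of the 22336 other protein-coding genes, 51.5%, 38.9% and 44.8% had a pooled peak, and 20.3%, 9.89% and 18.5% had one in 2 or more samples. The clock list was not tested against these shares. Rora, which opposes REV-ERB at the same DNA elements, had no pooled VDR peak in a window of 754 kb, the longest of the set, although it held 4, 5 and 6 ATAC peaks in colon, SI crypt and SI villus.

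Thyroid hormone receptor β, encoded by Thrb, mediates hormone responses in several tissues. Its strongest site, intronic at +26.3 kb, chr14:18519511-18520080, had −log10 q values of 36.0, 14.1 and 19.9 in colon, SI crypt and SI villus and was open in all. Colon samples 2 to 4 gave fold enrichments of 6.94, 6.44 and 7.49, SI crypt sample 4 gave 7.58 and SI villus sample 3 gave 5.46. The letters at this Thrb site include the DR4 printed above, 32 bp from the summit. A second Thrb site at +262 kb was supported by colon samples 2 to 4 alone (8.13, 4.27 and 6.74), with pooled −log10 q values of 26.5, 2.48 and 5.73. The Thrb groups did not separate by presence at either site (exact permutation p of 0.143 or more).

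The retinoic acid receptors carry the response to vitamin A derivatives. Rara had its strongest peak at an internal start (+32.3 kb), with pooled −log10 q values of 31.8, 3.55 and 9.84 in colon, SI crypt and SI villus. Fold enrichments at Rara were 4.25 and 7.65 in colon samples 3 and 4 and 5.57 in SI villus sample 2. Rarg had 1 colon peak at an internal start (−log10 q 20.4), called in colon sample 4 alone (6.47), and a weak one in SI villus (3.23).

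Both pooled VDR peaks of Rarb were in SI crypt. The stronger, chr14:17264494-17264884 in the last part of the gene, had a pooled −log10 q of 32.7 and fold enrichments of 10.4 and 6.44 in SI crypt samples 2 and 4. It overlapped a weak crypt ATAC peak (−log10 q 4.50) and holds the DR2 letters shown above, 2 bp from its summit. The second stood at the promoter of the shorter Rarb transcript, +243 kb, in an open stretch found in 3 of 3 crypt ATAC samples (−log10 q 13.5). It had a pooled −log10 q of 6.35 and was called in SI crypt sample 1 alone (5.95). The 29 bases printed for it hold a DR5 centred 5 bp from the summit, of the kind known from textbooks as the retinoic acid response element of this promoter. No colon sample gave a VDR peak in the Rarb window outside the regions left out of the pooled lists, and 3 of 4 SI crypt samples and 1 of 4 SI villus samples did.

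Other genes of these pathways make, carry or degrade the ligands. Among the retinoid and thyroid hormone handling genes reported here, Cyp26b1, Aldh1a1, Rbp2, Dio1 and Dio3 had a pooled colon peak. Cyp26b1, Aldh1a3 and Rbp2 had one in SI crypt, and Cyp26b1, Rbp2 and Dio1 had one in SI villus. Cyp26a1, Aldh1a2, Crabp1, Crabp2 and Dio2 had no pooled peak in any compartment. A peak called in 2 or more single samples was present at Rbp2 in all 3 compartments and at Cyp26b1 in SI villus. Among the 22336 other protein-coding genes, 51.5%, 38.9% and 44.8% had a pooled peak in colon, SI crypt and SI villus. In 2 or more samples 20.3%, 9.89% and 18.5% had one. A difference from these shares was not tested.

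The liver X receptors sense oxysterols. The single Nr1h2 peak lay behind the gene at +5.09 kb and 0.010 kb from the start of Pold1, with −log10 q values of 24.8, 20.3 and 14.0 in colon, SI crypt and SI villus. Colon samples 1 to 3 gave fold enrichments of 6.60, 4.79 and 6.23, SI crypt samples 1 and 4 gave 7.63 and 3.96 and SI villus sample 4 gave 5.64. At Nr1h3 the shared peak was at the promoter, nearer to the start of Acp2, with fold enrichments of 4.96 and 4.66 in colon samples 3 and 4, 5.62 in SI crypt sample 1 and 5.47 in SI villus sample 2. Of 6 LXR target genes, 6, 5 and 5 had a pooled VDR peak in colon, SI crypt and SI villus. In 2 or more samples they numbered 3 (Abcg1, Srebf1 and Mylip), 2 (Abcg5 and Abcg8) and 4 (Abca1, Abcg5, Abcg8 and Srebf1). The shares of the 22336 other protein-coding genes were 51.5%, 38.9% and 44.8%, or 20.3%, 9.89% and 18.5% in 2 or more samples. A difference from them was not tested.

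The NR4A genes are immediate-early genes that respond quickly to many stimuli. Nr4a2, which encodes NURR1, had 2 sites in all 3 compartments. At +7.55 kb its fold enrichments were 4.71, 4.23 and 6.85 in colon samples 1, 2 and 4, 8.37 in SI crypt sample 1, and 5.55 and 6.98 in SI villus samples 1 and 2, with pooled −log10 q values of 18.3, 14.4 and 10.7. At the Nr4a2 start (+0.123 kb) they were 6.26 in colon sample 4, 8.31 in SI crypt sample 1 and 4.97, 6.54 and 5.00 in SI villus samples 1, 2 and 4. At Nr4a1 there was 1 villus peak (−log10 q 6.71), nearer to the start of 9430023L20Rik, and at Nr4a3 1 colon peak (7.18), and no single sample called either.

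Nr5a2 encodes LRH-1, which is known for crypt renewal and local steroid synthesis. Its broadest site lay behind the gene, chr1:138737859-138738973, 119 kb from the start (pooled −log10 q 17.5 in colon). Fold enrichments were 3.93, 4.28 and 4.20 in colon samples 2 to 4 and 6.18 in SI crypt sample 1, with no SI villus peak. This Nr5a2 site is in the deposited sets of sites higher in colon and higher in SI crypt than in SI villus. At −5.80 kb a second Nr5a2 peak was called in colon (−log10 q 10.5), in samples 3 and 4 (4.74 and 5.88). The peak at Nr5a1, which encodes SF-1, a steroidogenic factor of adrenal and gonad, was at the edge of calling (−log10 q 1.89) and is shared with the window of Nr6a1.

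Among the orphan receptors of the NR2 and NR6 groups, Nr6a1, encoding the germ cell nuclear factor, had a promoter peak at +0.797 kb with −log10 q values of 26.1, 14.0 and 21.8. Fold enrichments at Nr6a1 were 8.40, 5.90 and 5.27 in colon samples 2 to 4 and 8.70 and 5.43 in SI villus samples 1 and 2, with no SI crypt sample positive. Nr2c1, encoding TR2, had a peak at its start (+0.032 kb) with fold enrichments of 4.89 and 6.59 in colon samples 3 and 4, 7.75 in SI crypt sample 1 and 6.01 and 7.05 in SI villus samples 1 and 2. The promoter peak of Nr2c2, encoding TR4, was called in 1 sample of each compartment (4.39, 5.42 and 5.01). The remaining NR2 genes held weak peaks, with −log10 q of at most 8.33 at Nr2e3, 7.65 at Nr2f2 and 5.22 at Nr2f6. Nr2e1 and Nr2f1, both known as developmental and neural regulators, had no called peak.

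Over the 31 genes there were 101 distinct VDR sites. Of these, 22 had a pooled peak in all 3 compartments (21.8%, against 16.4% of the 34864 sites of the genome), 14 in 2 compartments (13.9% against 18.8%) and 65 in 1 (64.4% against 64.8%). The 65 were 46 colon, 12 SI crypt and 7 SI villus sites. Counted by gene, 48 sites lay in introns, 26 within 1 kb of a transcript start, 25 behind the gene, 3 upstream, 3 in coding exons and 2 in UTR exons, and 33 were nearest to the start of another gene. No member site was called in all 12 single samples, as 199 sites of the genome were.

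By gene window, no member had a VDR peak in all 4 samples of one compartment and in none of another. Of the other genes tested 0.744% had this for colon against SI crypt, 1.25% for colon against SI villus and 0.0976% for SI crypt against SI villus. With 4 against 4 samples the exact permutation test cannot go below p = 0.0286, which 87, 140 and 11 genes reached, and 0 genes passed after Benjamini-Hochberg adjustment over all genes tested. With single-sample peaks in the regions left out of the pooled lists set aside, Rorb was the 1 member for colon against SI crypt (0.767% of other genes) and for colon against SI villus (1.26%).

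The authors' deposited sets of sites that differ between compartments held few of the 101 member sites. They held 1 as higher in colon than in SI crypt, the Rorb site (0.99%, against 1.62% of all sites), and 3 as higher in colon than in SI villus, at Rorb, Esr1 and Nr5a2 (2.97% against 2.66%). They held 1 as higher in SI villus than in colon, at Esrra (0.99% against 2.26%), and 1 as higher in SI crypt than in SI villus, at Nr5a2 (0.99% against 0.229%). No member site was in the sets higher in SI crypt than in colon (1.49%) or higher in SI villus than in SI crypt (0.0143%), so the share of member sites in these sets was near that of all sites.

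Accessible chromatin was present at most of the genes. An ATAC peak lay in the window of 24 members in colon (77.4%, against 68.1% of other genes), 30 in SI crypt (96.8% against 77.8%) and 30 in SI villus (96.8% against 74.3%). Nr2e1 lacked one in SI crypt and Pgr in SI villus. Accessible windows without a VDR peak numbered 2 in colon (Nr4a1 and Rora), or 6.45% against 19.4% of other genes. They numbered 11 in SI crypt (35.5% against 39.8%) and 14 in SI villus (45.2% against 30.5%). In colon, Nr2e1, Nr2f1, Rarb, Esrrb and Pgr had neither kind of peak, and Nr5a1 and Esr2 had a weak VDR peak without an ATAC peak. ATAC peaks found in 2 or more samples lay at 24, 27 and 23 members in colon, SI crypt and SI villus. Those are 77.4%, 87.1% and 74.2%, against 59.7%, 69% and 66.6% of other genes. With each ATAC list cut to its 39428 strongest peaks the counts were 24, 27 and 24. Those are 77.4%, 87.1% and 77.4%, against 68.1%, 69% and 66%, so SI villus then equalled colon.

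Between compartments, Esr2 and Esrrb had an ATAC peak in all 3 SI crypt samples and in no colon sample, as did 5% of other genes, and 5.25% differed in either direction. The strongest fold enrichments in SI crypt were 6.19, 5.81 and 5.02 at Esr2 and 5.07, 4.47 and 4.16 at Esrrb. The exact permutation test gave p = 0.1 for each, the smallest that 3 against 3 samples allow, and an adjusted p of 1. The peaks were weak, with −log10 q of 6.20, 6.15 and 4.75 at Esr2 and 4.11, 3.43 and 2.84 at Esrrb. With single-sample peaks at −log10 q of at least 5 neither gene kept the pattern, and Rarb and Esrrg had it instead. No member was split in this way between colon and SI villus (4.3% of other genes) or between SI crypt and SI villus (1.68%).

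In colon 30 of 83 peaks (36.1%, Wilson 95% interval 26.6 to 46.9) overlapped an ATAC peak, beside 41.9% of all colon VDR peaks. In SI crypt 29 of 44 did (65.9%, 51.1 to 78.1, beside 50.4%), and in SI villus 26 of 38 (68.4%, 52.5 to 80.9, beside 56.3%), so the colon interval lay under both SI intervals. The ATAC lists differ in length, and with each shortened to its 39428 strongest peaks the shares were 36.1%, 52.3% (37.9 to 66.2) and 57.9% (42.2 to 72.1), with overlapping intervals. Of the peaks called in 2 or more samples the share was 12 of 19 in colon (63.2% beside 58.1%), 5 of 6 in SI crypt (83.3% beside 67.9%) and 7 of 10 in SI villus (70.0% beside 74.2%). These intervals cover counting error only.

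**Figure D5:**
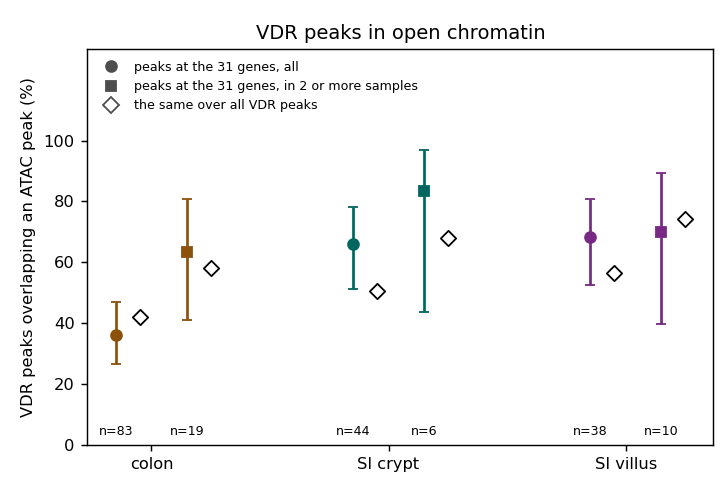
Percent of VDR peaks that overlap an ATAC peak of the same compartment. Circles are all peaks at the 31 genes, squares those called in 2 or more samples, bars Wilson 95% intervals, n the number of peaks, and diamonds the same share over all VDR peaks of the list: colon rises from 36.1% to 63.2% when support by 2 samples is asked for.

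The letters under the peaks were searched on both strands in 200 bp at each summit. An exact DR3 was in 0 of 83 colon, 0 of 44 SI crypt and 0 of 38 SI villus summits, which allows a share of up to 3.61%, 6.82% and 7.89%. Over all VDR peaks the share was 2.05%, 2.31% and 1.69%, so the absence of an exact DR3 at members is within what these numbers allow. With up to 1 mismatch, DR3 was in 2.41% and 2.27% of member summits in colon and SI crypt and in 0 of 38 in SI villus, which allows up to 7.89%, beside 10.4%, 9.68% and 8.25% over all peaks. Over the 101 sites the best DR3 match had 1 mismatch at 3, 2 at 26, 3 at 52 and 4 at 20. No share over all VDR peaks is given for 2 or more mismatches, so such a match has no background here.

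The single hexamer AGGTCA was in 13.3%, 18.2% and 18.4% of member summits in colon, SI crypt and SI villus, beside 22.0%, 17.2% and 18.6% over all VDR peaks. Its extended form AAAGGTCA, which contains it, was in 1 of 83, 3 of 44 and 1 of 38, beside 2.41%, 2.05% and 2.09%, and TCAAGGTCA, which contains it too, was in none, with the limits given for DR3, beside 0.957%, 0.583% and 0.481%. Exact repeats of another spacing were found at 9 distinct sites, counting the summits of every compartment. They were DR1 at the Nr1d1 promoter and the Nr1h2 site, DR2 at Nr2c2 (+54.3 kb), Nr6a1 (+2.05 kb) and the Rarb exon, DR4 at the Thrb sites +26.3 and +28.3 kb, and DR5 at the Rarb promoter and at Esrra. In colon, SI crypt and SI villus, DR1 was in 2, 1 and 2 summits, DR2 in 2, 2 and 1, DR4 in 2, 1 and 1, and DR5 in 1, 2 and 1, and each was in 0.362% to 0.979% of all summits. A match describes the letters and does not show which receptor was bound.

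Coregulators are the coactivators and corepressors that receptors recruit. Of 15 coregulator genes, 15, 13 and 14 had a pooled VDR peak for colon, SI crypt and SI villus. In 2 or more samples 6, 2 (Nrip1 and Hdac3) and 6 had one. Among the 22336 other protein-coding genes, 51.5%, 38.9% and 44.8% had a pooled peak, and 20.3%, 9.89% and 18.5% had one in 2 or more samples. Neither the coregulators nor the other nuclear receptor genes were tested against these shares. Of the 17 other nuclear receptor genes, 11, 12 and 14 had a pooled peak. In 2 or more samples these were Vdr, Ppard, Pparg, Nr1h4 and Nr1i2 in colon, Vdr, Rxra, Rxrb, Ppard and Nr1i2 in SI crypt, and Rxra, Ppard, Nr1i2 and Nr1i3 in SI villus.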

How the data were processed

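VDR ChIP-seq (12 samples) and ATAC-seq (9 samples) were read as peak lists. Per the labels and the submitters' processing notes, the authors aligned reads to mm9 with Bowtie2 2.2.6 and called peaks with MACS2 2.1.0.20150731 at q 0.05 without a control, per sample and on pooled samples. The deposited values are the pileup signal at the summit, −log10 p and −log10 q, and the fold enrichment over local background, a linear ratio. The deposited pooled intervals are filtered for blacklisted regions and the single-sample summits are nearly unfiltered, so pooled lists leave out 999 of 23881 colon, 786 of 13488 SI crypt and 966 of 19044 SI villus VDR peaks. The files hold no read counts per site, so fold changes between compartments were not computed. The deposited lists of differing sites (DiffBind) were used for membership only.

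Peaks sharing at least 1 bp with a gene body plus 10 kb were assigned in Python 3.11.15 (numpy 2.4.6, scipy 1.17.1) with the mm9 annotation, and a pooled peak was supported by a sample with a peak in it. Shares carry Wilson 95% intervals. Presence per sample was compared by a two-sided exact permutation test with Benjamini-Hochberg adjustment over all genes or sites, and was tested on simulated data. Named genes were all members, with single-sample values for those whose peak was among the 10 member peaks of highest −log10 q in a compartment. Single-sample values at other sites were chosen after they were seen. The members and lists were chosen with earlier results of these data known. A pair of list genes is not reported here. Sequences are from the mm9 genome. The alternatives were stricter thresholds, other windows, replicate support and leaving out each sample. Setting aside single-sample peaks in blacklisted regions and testing single sites were chosen after seeing the data.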

Additional observations from a re-analysis of the deposited data

Results flagged for a closer look

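The number of members with a VDR peak per colon sample had 1 value apart from the rest: counting all single-sample peaks, sample 1 had 6, and the other 3 had 15 or 16. The gap to the nearest sample was 0.9 of the whole range. Colon sample 1 also had the fewest peaks of the 4, 1760 against 5011 to 10100, and 7.82% of other genes had a peak in it against 18.9% to 32.5%. Of 6 groups of 4 samples tested, 1 was set apart in this way, and chance sets apart about 1 group in 20.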

How the results depend on the processing

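Of 153 alternatives, 122 left the result unchanged in the sense of a count within 1.5 times or a share within its interval, which does not ask for the same genes. Asking for peaks in all 4 samples left 1 member per compartment. Asking for 3 samples left 3 for SI crypt and 3 for SI villus, and asking for 2 left 6 and 7 of the pooled 19 and 16. Leaving out each replicate, the SI villus count in 2 or more samples ranged from 3 to 7. The colon share in ATAC peaks was 26.5% when 50% of the peak had to be covered, 53.5% at −log10 q of at least 5 and 63.2% in 2 or more samples. For SI crypt it was 40.9% at that coverage, 43.2% by midpoint and 83.3% in 2 or more samples.

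Counts of members present in all samples of one compartment and none of the other moved between 0 and 3. For VDR in colon against SI crypt the leave-one-out range was 0 to 1, the 1 being Thra without SI crypt 1 and Rarb without SI crypt 3. In colon against SI villus it was 0 to 1 (Nr5a2 without colon 1), and in SI crypt against SI villus 0 to 1 (Esrrg without SI villus 1), where −log10 q of at least 5 also gave 1, Esrrg. Within 10 kb of the start, and outside the regions left out of the pooled lists, both colon comparisons gave 1, Rorb. For ATAC in colon against SI crypt the start window gave 0, the leave-one-out range was 2 to 3 (Rarb added without colon 3), and −log10 q of at least 5 gave 2 other genes, Rarb and Esrrg in place of Esr2 and Esrrb. In colon against SI villus the leave-one-out range was 0 to 2 (Nr2e1 and Esr2 without SI villus 1, Nr5a1 without SI villus 3), and in SI crypt against SI villus 0 to 3 (Pgr without SI crypt 2, and Nr5a1, Rarb and Esrrb without SI villus 3). At −log10 q of at least 5 the latter ATAC comparisons each gave 1, Esrrg and Rarb. The cause was not tested. Deviations of same-numbered samples correlated above 0.1 in 2 of 12 VDR pairs (−0.0964 to 0.159) and 0 of 9 ATAC pairs. Correlations of peak calls cannot show whether same-numbered samples came from the same mouse, so pairing stays unknown. With the replicate block the smallest possible p was 0.125 for 4 pairs and 0.25 for 3, so 0 members passed. Depth per sample limits support: an uncalled peak is not an absent one.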
